A study of Drosophila melanogaster with 2 samples.

Results

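The distal autosomal binding sites of the CG1620 protein are described here. They were the 451 peaks, of 3894 in the authors' optimal set, that lay off the X chromosome and had their summit more than 1000 bp from every annotated transcription start site (TSS). They made up 14.8% of the 3048 autosomal peaks of that set. The data came from chromatin immunoprecipitation with sequencing (ChIP-seq) on whole adult Drosophila melanogaster females of unknown age. The flies were of 1 transgenic line that stably expresses CG1620 with GFP fused to its C-terminus, and an anti-GFP antibody was used. All samples formed 1 group with biological replicates 2 and 3, taken from separate biosamples of that line; replicate 1 was not analysed here, and there was no second condition. The labels class the assay as a transcription factor ChIP-seq, and the function of CG1620 was not given in the sources used here. Peaks of the optimal set were retained by a comparison of replicates called the irreproducible discovery rate (IDR). Ranks did not agree at every retained site. The site in Dad ranked 763 in replicate 2 and 22486 in replicate 3, and 16 of the 451 sites had no counterpart in the replicate 3 list. The files hold no read counts, so the depth is unknown.

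A ChIP-seq peak marks DNA that was recovered with the tagged protein, either by direct contact or through other proteins, and its summit is the position of highest signal. Peaks at a TSS often reflect the transcription machinery or factors that sit at promoters. Peaks far from any TSS, in introns or between genes, include enhancers and insulators: enhancers hold short motifs for sequence-specific factors and act on promoters from a distance, and insulators separate regulatory domains through proteins such as CTCF and Su(Hw). In whole flies all tissues are mixed, so a site bound strongly in few cells cannot be told apart from one bound weakly in many.

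The sequences within 50 bp of 10 summits are shown because the strongest sites in introns and between genes and the forkhead letters turn on them. Each is 101 bp of the dm6 plus strand, read 5′ to 3′ from the RefSeq assembly, with the summit in the middle. Capitals mark TGTTTAC, a core that forkhead (Fox) factors recognise, or its reverse complement GTAAACA. The first pair are the strongest intronic sites of all, the next pair are among the strongest intergenic sites, and the last 6 are among the strongest intronic sites with the forkhead letters.
CG11050 (chr2L:6612659-6612759): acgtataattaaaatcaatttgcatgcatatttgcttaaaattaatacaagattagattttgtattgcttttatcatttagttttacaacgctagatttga
CG32486 (chr3L:3060753-3060853): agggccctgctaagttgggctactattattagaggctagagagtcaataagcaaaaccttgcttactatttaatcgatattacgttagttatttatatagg
near CG31668 (chr2L:2202383-2202483): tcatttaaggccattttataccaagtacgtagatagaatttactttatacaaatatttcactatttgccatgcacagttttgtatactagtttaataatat
near CG10651 (chr2L:20121038-20121138): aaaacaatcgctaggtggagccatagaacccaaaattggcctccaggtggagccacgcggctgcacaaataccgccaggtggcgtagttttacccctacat
Trl (chr3L:14759440-14759540): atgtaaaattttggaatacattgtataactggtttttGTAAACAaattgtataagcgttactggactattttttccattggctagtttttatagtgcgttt
smash (chr3R:4665119-4665219): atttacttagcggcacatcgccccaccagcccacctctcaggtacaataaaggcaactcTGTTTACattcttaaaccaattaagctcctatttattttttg
SCaMC (chr3L:12407065-12407165): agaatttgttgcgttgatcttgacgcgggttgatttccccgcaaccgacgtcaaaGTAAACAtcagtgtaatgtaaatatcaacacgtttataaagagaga
CG13917 (chr3L:1591849-1591949): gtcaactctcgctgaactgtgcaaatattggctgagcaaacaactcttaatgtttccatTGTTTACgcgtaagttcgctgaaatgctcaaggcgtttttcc
S6k (chr3L:5807532-5807632): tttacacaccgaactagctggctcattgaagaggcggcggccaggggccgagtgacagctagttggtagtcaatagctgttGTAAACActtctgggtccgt
simj (chr3L:10665839-10665939): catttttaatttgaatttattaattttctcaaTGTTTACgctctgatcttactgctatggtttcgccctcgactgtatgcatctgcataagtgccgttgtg
The strongest intronic window, of CG11050, had a G and C content of 22.8%, and that of CG32486 of 35.6%; both lacked the 7 letters. In the window nearest to CG10651 the letters AGGTGG occurred 3 times.

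Introns held most of the distal sites. The summit lay in an intron at 314 of the 451 sites, or 69.6% (95% exact Clopper-Pearson interval 65.1% to 73.8%), although introns made up 46.4% of the 84.2 Mb of autosomal sequence more than 1000 bp from a TSS. It lay between genes at 107 sites, or 23.7% (19.9% to 27.9%), against 34.4% of that sequence. The density was 8.04 sites per Mb of intron and 3.69 per Mb of intergenic sequence, a ratio of 2.18 (1.74 to 2.74). Protein-coding exons held 8 sites, or 1.77% (0.769% to 3.47%), against 13.7% of the sequence. The remaining summits fell in 3′ UTRs (11 sites), exons of non-coding RNAs (7 sites) and 5′ UTRs (4 sites). All intervals treat peaks as independent and cover counting error only, not differences between flies.

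Distal sites were weaker than promoter peaks, and intronic and intergenic sites were alike in their medians. The signal value is the authors' peak caller's score per peak relative to the control; it has no physical unit and is used only within a list or as a ratio named as such. Its median was 100.9 at intronic sites (interquartile range 81.2 to 136) and 100.8 at intergenic sites (81.1 to 146), against 120 (89.7 to 185) at the 2370 autosomal peaks within 500 bp of a TSS. The distal values ran from 70.0, the lowest of the whole optimal set, to 1268. Of the distal sites 35.9% belonged to the 1947 strongest peaks of the optimal set, compared with 53.5% of the autosomal promoter peaks, but 2 were among its 25 strongest and 8 among its 100 strongest.

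The median distance from summit to TSS was 2711 bp (interquartile range 1500 to 5174 bp), and the range was 1006 to 31856 bp. The density fell with distance, with 11.5 sites per Mb at 1000 to 2000 bp, 6.25 at 2000 to 5000 bp, 4.51 at 5000 to 10000 bp, 2.95 at 10000 to 20000 bp and 0.526 beyond 20000 bp. The signal did not follow: the medians in these bands were 99.2, 102.5, 100.6, 96.8 and 98.3. The intronic share lay above the intronic share of the sequence in each band, for example 66.9% against 36.3% at 1000 to 2000 bp and 74.3% against 57.0% at 10000 to 20000 bp, with an interval that excluded the share of the sequence in the nearest 3 bands but not in the 2 beyond 10000 bp. No distal site lay within 1000 bp of a TSS in the RefSeq annotation, while 20 lay within 1000 bp of the start of a pseudogene or transposable element, which the rule does not count. Among the named sites these include the one in CG32486, 535 bp from such a start, and those near CG10651 (682 bp), RabGGTa (286 bp), zfh2 (305 bp), mir-9385 (948 bp) and CG34260 (316 bp).

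**Figure D1:**
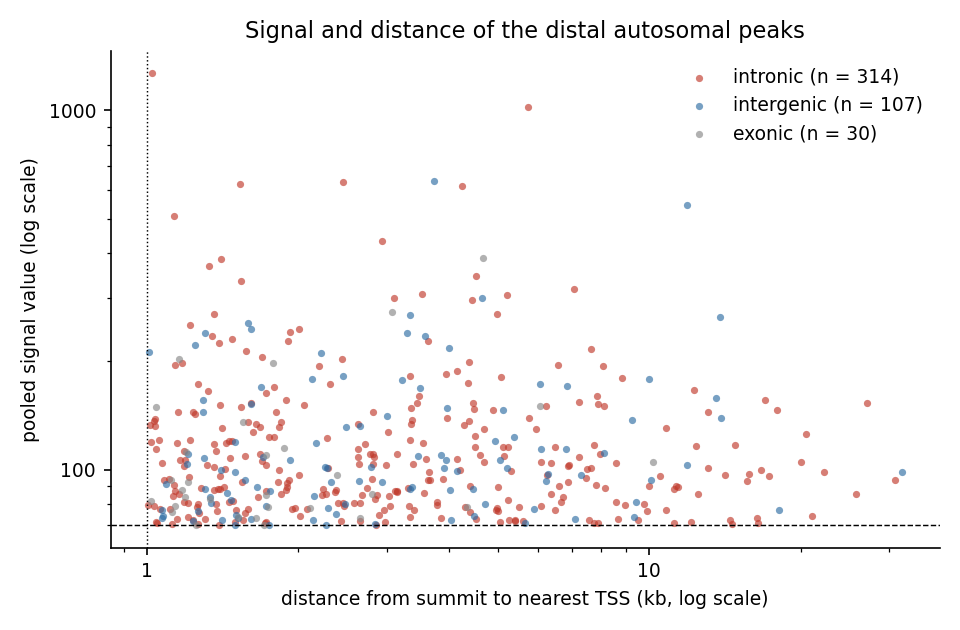
Pooled signal value of each of the 451 distal autosomal peaks (vertical axis, log scale, no unit) against the distance from its summit to the nearest TSS (horizontal axis, kb, log scale), coloured by location; the dotted line is the 1000 bp rule and the dashed line the weakest signal, 70.0. Intronic and intergenic sites overlap over the whole range, and strong sites occur at 1022 bp (signal 1268) as well as at 11911 bp (signal 546).

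The edge of the distance rule did not separate sites by signal. Just inside it were an intronic site of mtgo at 1006 bp with a signal of 79.5, an intergenic site near RabGGTa at 1009 bp with 213 and an intronic site of Roc2 at 1014 bp with 133. Just outside were intronic peaks of Spn at 994 bp with 72.5, of bel at 993 bp with 182 and of drongo at 991 bp with 114. The median signal of the 227 autosomal peaks at 500 to 1000 bp was 106 (interquartile range 83.0 to 145). That of all distal sites was 100.4 (80.9 to 137).

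The strongest distal site lay in an intron of CG11050, 1022 bp from the TSS (peak chr2L:6612516-6612901). It ranked 5 in the optimal set, with a pooled signal of 1268, a replicate 2 signal of 972 and a replicate 3 signal of 297. The next lay in CG32486, 5724 bp from the nearest TSS counted by the rule (rank 12), with 1019 pooled, 726 in replicate 2 and 295 in replicate 3. Both replicates thus put these sites among their 11 strongest candidates.

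An intron of CG12769 gave 631 pooled, with 411 in replicate 2 and 220 in replicate 3. Trl, which encodes the GAGA factor, a protein that binds GA-rich DNA and keeps chromatin open, had 624 pooled, 432 in replicate 2 and 192 in replicate 3, at 1528 bp from a TSS. smash, which encodes a protein of epithelial junctions, had 616 pooled, 492 in replicate 2 and 121 in replicate 3. The other sites of the strongest 10 lay in for, the cGMP-dependent protein kinase (507), upSET, a chromatin regulator (433), EcR, the ecdysone receptor (385), ush, a cofactor of GATA factors (368), and RapGAP1, a GTPase-activating protein of Rap1 (346).

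The strongest intergenic site lay 3733 bp from the TSS of CG31668, with a signal of 634 pooled, 468 in replicate 2 and 158 in replicate 3. The second lay 11911 bp from CG13323, with 546 pooled, 383 in replicate 2 and 157 in replicate 3. After these 2 the intergenic values dropped to 300 near lncRNA:CR44761, 270 near CycB, the mitotic cyclin B, and 266 near CG10651, whose site stood 13835 bp from the TSS. The rest of the strongest 10 were near RhoL (255), Aldh-III (246), DNAlig3 (240), COX7AL2 (240) and lncRNA:CR45054 (235). The site near COX7AL2 and the one near CG31668 belonged to 1 run of 5 distal sites within 6624 bp. Nearness to a TSS does not say which gene a site acts on.

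Few exonic sites were strong. In coding sequence the strongest were in otp, a homeobox gene (388), klar, which encodes a protein of organelle and nuclear positioning (274), and CG10357 (203). In 5′ UTRs they were in Mef2, the muscle regulator (198), spen (115) and dos (87.8). In 3′ UTRs they were in mtd (150), Tctp (136) and Ptp61F, whose position CG9166 shares (112). Among non-coding exons lncRNA:CR43334 led with 150.

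The farthest site lay 31856 bp from the TSS of CG43245, between genes, with a signal of 98.2. The next 4 were all intronic: pum, the translational repressor Pumilio, at 30875 bp (93.8), Tet, a DNA-modifying dioxygenase, at 27158 bp (153), pyd at 25786 bp (85.7) and lilli at 22260 bp (98.4). The 3 sites of chromosome 4, a small chromosome rich in heterochromatin, were all intergenic, near lncRNA:CR43437 (223), zfh2 (100.8) and mir-9385 (92.8). The counts on the large arms were 96 on 2L, 103 on 2R, 113 on 3L and 136 on 3R, or 5.16 to 5.51 sites per Mb of distal sequence, and the intronic share was lowest on 3L, at 61.1% (51.4% to 70.1%), and highest on 2R, at 76.7% (67.3% to 84.5%).

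Within introns the sites favoured the first. In the longest transcript with the summit in an intron, it was the first intron at 167 of 314 sites, or 53.2% (47.5% to 58.8%), against 28.3% of 386767 tiles of 101 bp that cover the distal intronic sequence. The introns that held sites had a median length of 10982 bp (interquartile range 4788 to 21433 bp), against 17009 bp (6289 to 39106 bp) around the tiles. The sites also lay near a TSS more often than the sequence did, as the fall with distance shows, and the part of that in the first-intron share was not tested. The nearest TSS belonged to the host gene itself at 242 of the 314 sites, or 77.1%.

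The 314 intronic sites lay in 251 host genes, of which 244 encode protein; 14 sites lay in introns of 2 overlapping genes at once. The median length of the protein-coding hosts was 20553 bp (interquartile range 11944 to 44666 bp); the rule itself favours long genes, since 5693 of the 11749 autosomal protein-coding genes have intronic sequence more than 1000 bp from a TSS. Hosts had a promoter peak of the optimal set within 500 bp of a TSS of theirs in 163 of 244 cases, or 66.8% (60.5% to 72.7%), against 24.6% of the 11505 other autosomal protein-coding genes, a difference of 42.2 percentage points (36.0 to 47.9, Newcombe interval). The difference stood in each band of gene length: 64.9% against 30.6% for genes of 10000 to 20000 bp, 61.3% against 21.7% for 20000 to 50000 bp, and 68.8% against 13.7% above 50000 bp.

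Of the hosts 201 held 1 site, 33 held 2 and 17 held 3 or more. The leaders were tara and crp with 6 each. tara, which encodes a transcriptional coregulator of the trithorax group, had signals between 70.5 and 160, all in its first intron at 1121 to 7856 bp from a TSS. crp, which encodes a bHLH factor, had signals between 77.0 and 117, in its first and second introns. simj, which encodes a subunit of a histone deacetylase complex, had 4 sites with signals of 145, 167, 194 and 153; the last 2, with summits at 10682934 and 10683133 on 3L, shared 1 candidate in each replicate, with 124 in replicate 2 and 71.5 in replicate 3.

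Eip75B, an ecdysone-induced nuclear receptor, held 4 sites at 5398 to 12108 bp from a TSS, with signals between 71.6 and 150. SNF4Agamma, the gamma subunit of the energy sensor AMPK, held 4 with 71.4 to 140, and sbb, a corepressor, 4 with 70.8 to 127. In sbb the sites with summits at 18342484 and 18342687 on 2R shared 1 candidate in replicate 2, with 89.6. CG32425, a host of 3 sites, had 2 that shared 1 candidate in each replicate, with 180.8 in replicate 2 and 43.0 in replicate 3. Such neighbours may be parts of 1 region. The hosts of 3 sites included for, EcR, the corepressor Sin3A, Tet, the circadian factor vri, the co-chaperone Tpr2, the pyruvate dehydrogenase kinase Pdk and the BTB factor psq. EcR and Tet were the 2 of these 17 hosts with no promoter peak. In EcR the strong site (385 pooled, 280 in replicate 2, 104 in replicate 3) stood apart from its other pair (90.0 and 73.4).

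Hosts were counted in lists of genes, over the genes with intronic sequence more than 1000 bp from a TSS. Over all such genes 244 of 5693, or 4.29%, held a site, with 7.76 sites per Mb of their distal intronic sequence (6.92 to 8.67, exact Poisson). The lists were described by counts only, and lists share genes. Of 18 ecdysone response genes 7 held a site (38.9%, 17.3% to 64.3%; 24.7 sites per Mb, 13.2 to 42.2): Eip75B, EcR, Eip74EF, ImpL2, Kr-h1, ftz-f1 and tai. Eip74EF, an ETS factor induced by ecdysone, had 1 site 20466 bp from a TSS with a signal of 126 and another of 71.0.

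Of 21 insulin and TOR signalling genes 6 held a site (28.6%, with 46.0 per Mb, 21.0 to 87.4). SNF4Agamma alone held 4 of the 9 sites behind this density, and the interval treats sites as independent. Lk6, a kinase of the translation factor eIF4E, had 198 pooled with 180 in replicate 2 and 16.9 in replicate 3, S6k, the ribosomal protein S6 kinase, had 149 pooled with 117 in replicate 2 and 30.8 in replicate 3, and foxo, the forkhead factor restrained by insulin, had 116 pooled with 87.5 in replicate 2 and 22.7 in replicate 3. Of 9 circadian clock genes 3 did (33.3%; 84.5 per Mb, 31.0 to 184): vri with 3 sites up to 124, Pdp1 with 153 and 136, and cwo with 145. In the list of protein kinases of signalling 10 of 37 genes did (27.0%, with 25.1 per Mb), among them wts, the Hippo pathway kinase Warts, with 228. The 10 also count Pka-R2, a regulatory subunit of protein kinase A.

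Of 34 chromatin and insulator regulators 5 did (14.7%; 40.6 per Mb): Trl with 624 and 196, trx with 103 and 98.8, psq, lola and osa. In 4 lists the share of genes with a site was above the 4.29% of all genes, while the density per Mb was below the 7.76 of all genes. Of 46 axon guidance and cell adhesion genes 5 held a site (10.9%, 3.62% to 23.6%), but their distal introns span 1.98 Mb, which gave 3.04 per Mb (1.11 to 6.61). Site density fell with distance from a TSS, as given above. The densities of the lists were not adjusted for that distance, and its part in them was not tested. The values were 7.41% and 2.88 per Mb for oogenesis and mRNA control genes (2 of 27), 7.41% and 4.17 per Mb for ion channels (2 of 27) and 10% and 5.53 per Mb for homeotic and segmentation genes (2 of 20); the intervals of these 3 lists overlapped those of all genes on both measures.

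Distances between neighbouring distal sites varied widely, and no reference spacing was computed for them. The nearest other distal site was at a median of 35660 bp, but 151 sites, or 33.5% (29.14% to 38.05%), had one within 10 kb and 44, or 9.76%, within 1000 bp. By this 10 kb rule the sites fell into 361 runs, of which 300 were single sites and 16 held 3 or more sites, 61 in all. crp, tara and 3 runs of 5 sites headed these: the run around COX7AL2 and CG31668 with signals of 70.8 to 634, one near lncRNA:CR44526 with 73.1 to 179, and one around lncRNA:CR45054 with 79.0 to 235. A distal site within 10 kb was found at 36.0% (30.7% to 41.6%) of intronic and 29.0% (20.6% to 38.5%) of intergenic sites, whose intervals overlap.

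Counting every peak of the optimal set, intronic sites had company more often than intergenic ones. Another peak lay within 10 kb of 76.1% (71.0% to 80.7%) of intronic sites, 55.1% (45.2% to 64.8%) of intergenic sites and 73.0% (71.1% to 74.7%) of autosomal promoter peaks. The median distance to the nearest other peak was 3333 bp for intronic sites, 7956 bp for intergenic sites and 4013 bp for promoter peaks. Of the 451 sites 21 overlapped another peak of the set, so that neighbours as close as these may be parts of 1 region.

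All 451 sites had an overlapping candidate in replicate 2, and 435, or 96.5% (94.3% to 98.0%), had one in both replicates; a candidate counted where it and the site shared 50% or more of the length of one of them. Since both replicates also made the pooled list and set the IDR threshold, this agreement is partly built in. Each replicate list holds 30000 candidates, so a candidate there can be weak. The 16 sites without a replicate 3 candidate comprised 13 intronic sites, 2 intergenic sites and 1 in a 3′ UTR, and the strongest were in Pde11 (116 pooled, 105 in replicate 2), mbc (108 pooled, 76.5 in replicate 2) and Meltrin (100.02 pooled, 94.2 in replicate 2).

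Over their whole range of signal, the distal sites had a lower rank correlation between the replicates than the promoter peaks, which span a wider range. The correlation of the 2 replicate signals was 0.54 over the sites with both, 0.50 over 301 intronic and 0.68 over 105 intergenic sites, and 0.72 over 2275 promoter peaks, as a description over peaks that share 2 libraries. In 4 bands of pooled signal, from weak to strong, it was -0.64, -0.42, -0.14 and 0.46 at distal sites and -0.52, -0.47, -0.21 and 0.71 at promoter peaks, so that the order of the groups was not the same in every band. The bands are cut on the pooled signal, to which both replicates contribute. The ratio of replicate 2 to replicate 3 signal had a median of 3.08 (interquartile range 2.38 to 4.41) at intronic sites, 2.61 (2.06 to 3.47) at intergenic sites and 2.73 (2.15 to 3.62) at promoter peaks. Among the 3894 strongest candidates of replicate 3 were 68.5% (63.0% to 73.6%) of intronic sites, 79.4% (70.5% to 86.6%) of intergenic sites and 81.4% (79.8% to 83.0%) of promoter peaks, whereas in replicate 2 the shares were 90.4%, 89.7% and 92.7%. The intronic interval in replicate 3 lay below that of the promoter peaks, which were also the stronger group.

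Single sites differed far more. Hsp83, the gene of the Hsp90 chaperone, had the lowest ratio, 0.922, with 63.5 in replicate 2 and 68.9 in replicate 3. CG10543 followed with 63.4 in replicate 2 and 59.0 in replicate 3, where a neighbouring site of the same intron has the same replicate 3 candidate, and a site near CG34260 with 40.8 in replicate 2 and 35.0 in replicate 3. At the other end Dad, an inhibitor of Dpp signalling, had 146 in replicate 2 and 7.74 in replicate 3, jim had 139 in replicate 2 and 8.26 in replicate 3, and the shared intron of CG45088 and CG6191 had 100.8 in replicate 2 and 7.85 in replicate 3. The weakest candidate of the replicate 3 list had 6.69, so these 3 were near its floor.

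**Figure D2:**
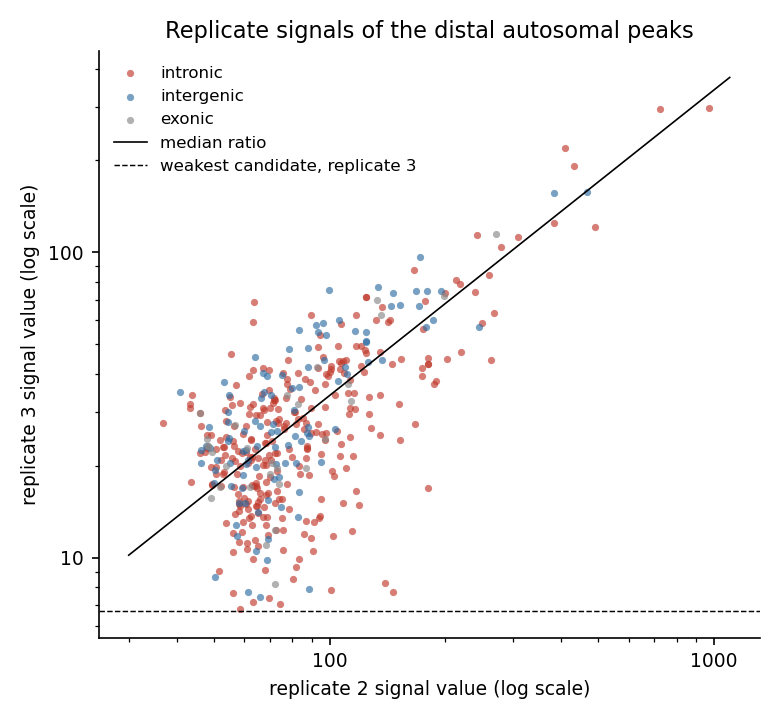
Replicate 3 signal value (vertical axis) against replicate 2 signal value (horizontal axis) for the distal autosomal peaks with a candidate in both, on log scales and coloured by location; the solid line is the median ratio over all of them and the dashed line the weakest replicate 3 candidate, 6.69. Intronic points spread furthest below the line; the 3 above 100 in replicate 2 and below 10 in replicate 3 are Dad, jim and the shared intron of CG45088 and CG6191.

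Of 28 motifs searched on both strands within 50 bp of the summit, the forkhead core TGTTTAC stood out at intronic sites. It occurred at 33 of 314 intronic sites, or 10.5% (7.35% to 14.4%), at 4 of 107 intergenic sites, or 3.74% (1.03% to 9.30%), and at 3.71% (2.99% to 4.55%) of autosomal promoter peaks. Intronic exceeded intergenic sites by 6.77 percentage points (0.557 to 11.3) and promoter peaks by 6.80 (3.75 to 10.7). Among the 1947 strongest peaks the shares were 11.9% of 118 intronic and 2.70% of 37 intergenic sites, and the interval of that difference included 0 (9.16, -2.90 to 16.6). Over all locations the core was at 8.43% (6.03% to 11.4%) of the distal sites. Counted in the same way, autosomal peaks at 500 to 1000 bp from a TSS held the core at 6.17%, and distal X peaks at 3.83%. Flanks of the same length, starting 150 bp from the intronic summits, held it at 1.59%, and tiles of distal intronic sequence at 2.15%. Tiles weighted to the G and C content of the intronic sites held it at 2.25%. The intervals are not adjusted for the number of motifs, and a match is only letters, not a bound site.

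The forkhead core was concentrated at the summit. Matches lay in the 50 bp on either side at 6.05% of intronic sites each, while in the bins from 100 to 500 bp the share averaged 1.41% and did not pass 2.87%. Its share among intronic sites was 9.24%, 9.71%, 13.6% and 12.1% from the nearest to the farthest band of distance (1000 to 2000, 2000 to 5000, 5000 to 10000 and above 10000 bp), with overlapping intervals. It was 8.98% (5.11% to 14.4%) in first introns and 12.2% (7.42% to 18.7%) in later ones. Sites in genes with a promoter peak held it at 12.6% (8.51% to 17.6%) and those in genes without one at 5.49% (1.81% to 12.4%), which overlap. The median signal of intronic sites was 98.4 with the core and 101 without it.

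**Figure D3:**
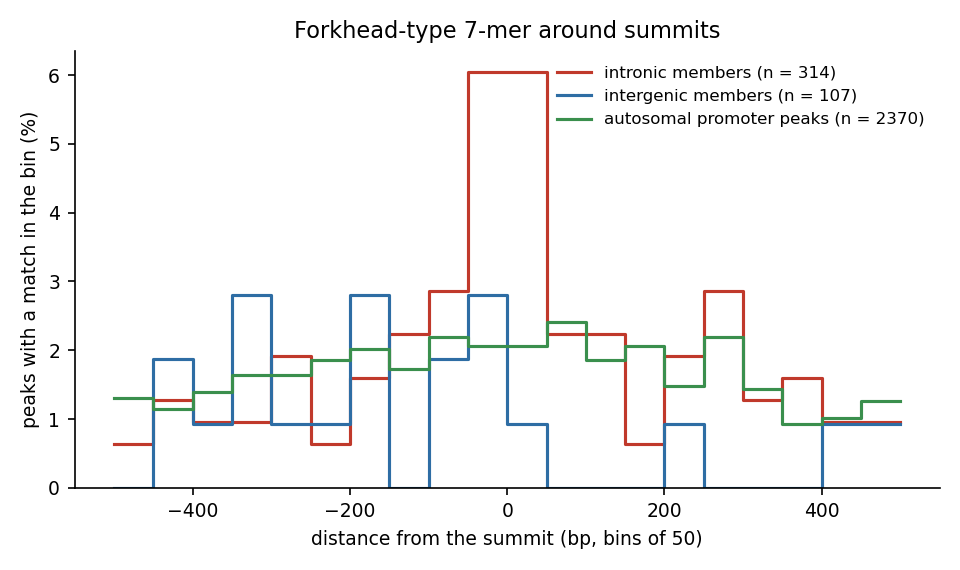
Share of peaks with the forkhead 7-mer (vertical axis, %) in bins of 50 bp by distance from the summit (horizontal axis, bp, both strands searched), for intronic and intergenic distal sites and for autosomal promoter peaks. The intronic line reaches 6.05% in both bins next to the summit, and the promoter line does not exceed 2.41%.

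The genes with the core at an intronic site are given here by signal, with no test of the group. After Trl (624), smash (616), the mitochondrial carrier SCaMC (336) and CG13917 (306) came CG10543 (205), Mef2 (154), S6k (149), simj (145), SNF4Agamma (140), the triglyceride lipase bmm (133), Vha16-1 (127) and sbb (127). Next were ome (120), Pde11 (116), Csk (114), the fatty acid synthase FASN1 (102), lilli (98.4) and pum (93.8). The intron of CG45088 and CG6191 (92.5), neb (92.2), cdi (89.8), CG5953 (86.9), for (86.8) and 1 of the 3 sites of vri (85.5) followed. Weaker still were EDTP (85.0), dnr1 (82.5), the inositol phosphate synthase Inos (81.5), CycG (79.1), cpo (78.8) and crp (77.0). The weakest were CG46429 and Sesn, which share the site (76.8), S (72.4) and the cell death gene hid (72.1). In Vha16-1, sbb, ome and Pde11 the core occurred at 2 positions in the window.

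Relatives of the core were added after the data had been seen. TGTTTGC, which differs in 1 base, was found at 12.7% (9.26% to 16.9%) of intronic sites, 3.74% (1.03% to 9.30%) of intergenic sites and 2.78% (2.16% to 3.53%) of promoter peaks, with 5.10% in the intronic flanks and 3.54% in the intronic tiles. The shorter TAAACA was found at 22.9% of intronic sites, 13.1% of intergenic sites and 13.2% of promoter peaks, with 10.5% in the intronic tiles. For both, intronic sites exceeded intergenic ones, by 9.0 (2.63 to 13.7) and 9.85 (1.04 to 17.0) percentage points. TAAACA lies within GTAAACA, so the 33 intronic and 4 intergenic sites with the core count again, and its excess is not separate. The reverse complement of TGTTTGC holds GCAAAC, which led the search described below. On the chromosomes outside that choice, GCAAAC at distal summits exceeded flanks by 1.98 points (-3.61 to 7.60). The intronic excess of TGTTTGC was not tested on sites kept out of its choice.

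The motifs of CTCF and Su(Hw) were rare, and more frequent at distal sites than in their flanks. GGTGGCGC, a core of the CTCF motif, occurred at 8 distal sites, or 1.77% (0.769% to 3.47%), against 0 of 451 flanks, 0.675% of promoter peaks and 0.170% of tiles. It was not particular to them: the autosomal peaks at 500 to 1000 bp from a TSS held it at 8 of 227, or 3.52%, and the X peaks more than 1000 bp from a TSS at 4 of 183, or 2.19%. TGCATACT, a part of the Su(Hw) motif, occurred at 6 sites, or 1.33% (0.490% to 2.87%), against 0 flanks, 0.422% of promoter peaks and 0.462% of tiles. It was at 4 intergenic sites (3.74%) and 2 intronic ones (0.637%), a difference of -3.10 percentage points, intronic minus intergenic (-8.60 to -0.288). These and the forkhead core were the 3 motifs of 28 whose share at distal sites exceeded both flanks and tiles with intervals of the differences above 0. The intervals against flanks treat summits and flanks as independent, although both come from the same sites.

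Several promoter motifs were less frequent at distal sites than at promoter peaks. The DNA replication element TATCGATA was found at 3 distal sites (0.665%), against 5.57% of promoter peaks and 0.203% of tiles. Promoter motif 1, searched as GGTCACAC, was found at 1 (0.222%), against 3.84% of promoter peaks and 0.132% of tiles. The BEAF-32 core CGATA was found at 14.9% of distal sites, against 29.4% of promoter peaks, with 14.0% in flanks and 10.5% in tiles. Ohler's promoter motif 7 was found at 1.77% of distal sites, against 8.35% of promoter peaks and 0.687% of tiles. Among the distal sites it was at 5 intergenic (4.67%) and 3 intronic (0.955%) ones. The E-box CAGCTG was found at 5.10% of distal sites, against 8.06% of promoter peaks and 3.55% of tiles. The interval of the difference between distal sites and tiles lay above 0 for TATCGATA, CGATA and Ohler's motif 7. It included 0 for promoter motif 1 and CAGCTG. The letters GAGAGAG of the GAGA factor were at 2.88% of distal sites and 1.48% of promoter peaks, but also in 4.66% of the flanks of distal sites. TAATTA, a homeodomain core, was at 8.92% of intronic and 2.80% of intergenic sites, with 7.51% in tiles.

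**Figure D4:**
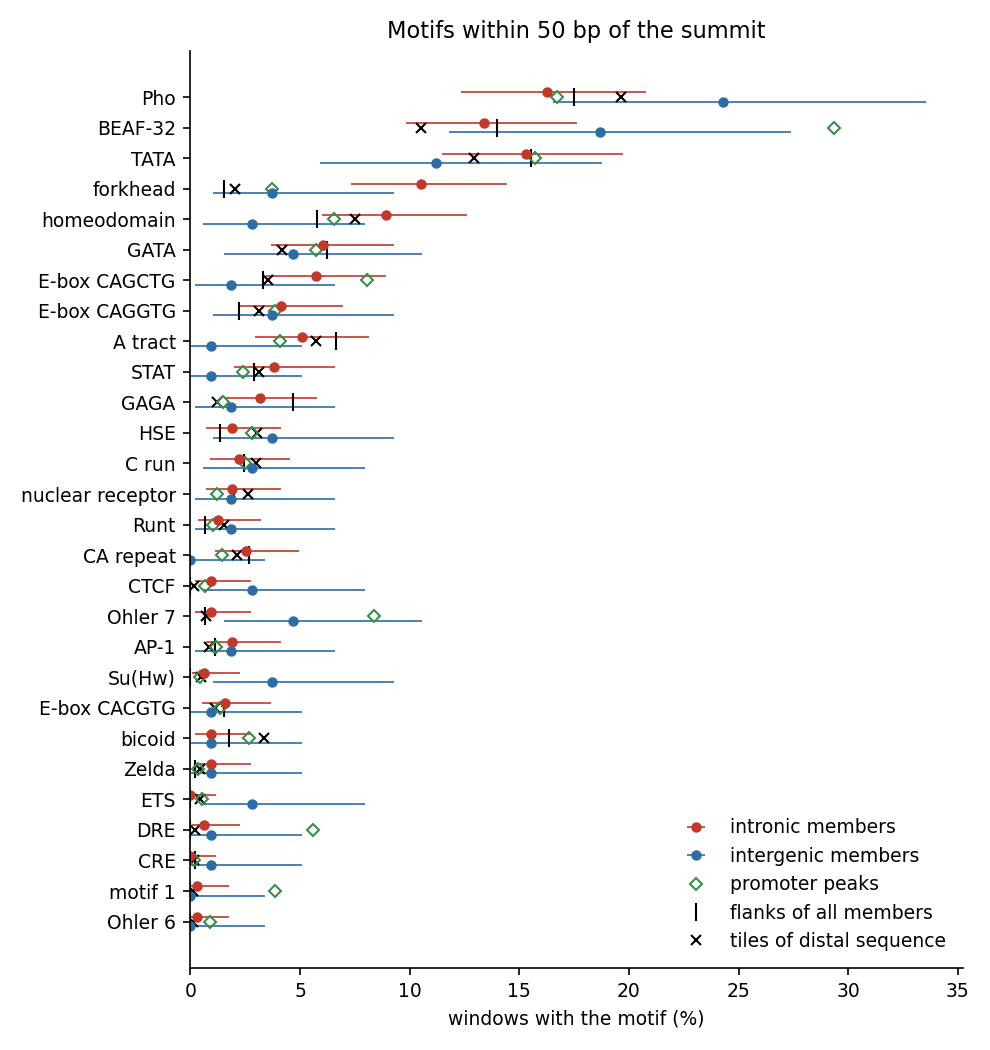
Share of windows within 50 bp of the summit that hold each of 28 motifs (horizontal axis, %), with 95% exact intervals for intronic and intergenic sites, and with the shares in promoter peaks, flanks of all distal sites and tiles of distal sequence. Forkhead at intronic sites (10.5%) lies to the right of all its comparisons, while BEAF-32, DRE, motif 1 and Ohler 7 are most frequent at promoter peaks.

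A search of all 6-mers gave the forkhead letters in part. The 10 6-mers with the largest excess over the flanks at the 199 sites of chromosome 2 were led by GCAAAC (19.1% of summits, 5.53% of flanks). At the 252 sites of chromosomes 3 and 4, which took no part in the choice, all 10 were more frequent at summits than in flanks, but the interval of the difference lay above 0 only for GTAAAC, at 9.52% (6.20% to 13.8%) of summits and 2.78% of flanks. That 6-mer lies within the reverse complement of the forkhead core. GCAAAC itself was at 12.3% of these summits and 10.3% of their flanks. With the choice made on chromosomes 3 and 4, 7 of 10 were more frequent at the summits of chromosome 2. Intervals above 0 were then found for AGTAAA, then for TAAACA, then for TATTGA, then for TATGCA and also for ATTACA; of these TAAACA is part of the forkhead letters, and GTAAAC was not among the 10.

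The base composition around the summit ran opposite ways in introns and between genes. At intronic sites the G and C content was 37.8% ± 0.536 (standard error over 314 sites) within 50 bp of the summit and 41.8% ± 0.460 at 150 to 200 bp. At intergenic sites it was 40.2% ± 0.899 (107 sites) within 50 bp and 36.0% ± 1.04 at 150 to 200 bp, and it was back at 40.3% ± 0.823 at 400 to 450 bp. Promoter peaks had 39.3% ± 0.202 within 50 bp and 39.6% ± 0.170 at 150 to 200 bp. The errors are over sites within the same 2 libraries. Base composition can shift the background of A- and T-rich motifs; its part in the motif shares other than the forkhead core was not tested. Repeat masking covered more than 50% of the window at 29 of the 451 sites, or 6.43%.

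Below the optimal set, distal candidates of the pooled list changed in kind with rank. The authors label that list as peaks and background used as input for IDR, so its weaker candidates may be background. The share in introns was 69.6% at ranks 1 to 3894, 73.9% at ranks 3895 to 6000, 67.4% to rank 8000, 57.7% to rank 12000, and 49.8% (48.1% to 51.5%) at ranks 24001 to 30000. The share in coding sequence was 1.77%, 3.92%, 12.7% and 23.3% in the first 4 of these bands and 26.0% (24.5% to 27.6%) in the last, against 13.7% of distal sequence. The forkhead core at intronic candidates was at 10.5%, 7.96%, 5.67%, 4.71%, 4.25%, 2.99% and 2.37% over the 7 bands from strong to weak, and the last value was near the 2.15% of intronic tiles. At intergenic candidates it lay between 1.85% and 5.19% in every band.

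**Figure D5:**
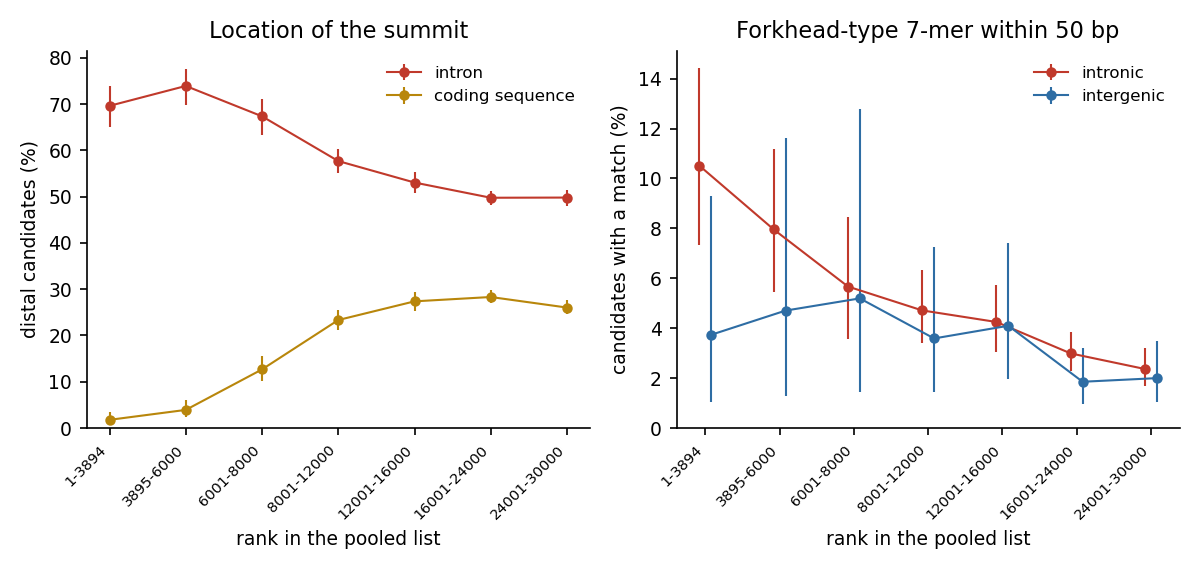
Distal autosomal candidates of the pooled list by band of rank (horizontal axis, strongest first): left, the share (%) with the summit in an intron or in coding sequence; right, the share (%) of intronic and intergenic candidates with the forkhead 7-mer within 50 bp; bars are 95% exact intervals. The coding share climbs from 1.77% in the optimal set to between 23.3% and 28.3% beyond rank 8000, and the intronic forkhead share declines from 10.5% to 2.37%.

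The forkhead core and the location were also taken from each replicate alone, with its 3894 strongest candidates. In replicate 2 the core was at 12.5% (9.09% to 16.5%) of 329 intronic and 1.90% (0.232% to 6.71%) of 105 intergenic distal sites, a difference of 10.6 percentage points (4.84 to 14.8). In replicate 3 it was at 8.70% (6.02% to 12.1%) of 368 intronic and 5.22% (2.13% to 10.5%) of 134 intergenic sites, a difference of 3.47 (-2.25 to 7.73). The intronic excess over intergenic sites thus had an interval above 0 in replicate 2 and not in replicate 3, while the excess over the intronic flanks (1.52% in replicate 2 and 1.63% in replicate 3) was present in both. Coding sequence held 7 distal sites in replicate 2 (1.51%) and 37 in replicate 3 (6.54%).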

How the data were processed

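The authors deposited peak lists, not reads: per the text files beside them, each replicate's list rests on the alignments of that replicate and 1 control file, the pooled list on both replicates, and the optimal IDR set on the 3 lists. Each list's unit is a signal value per peak, which the authors deposited with no scaling between lists; no source used here gives the aligner, peak caller or IDR threshold. The replicate and pooled lists held 30000 candidates each on dm6, and the 3894 peaks of the optimal set had signals of at least 70.0. The pooled list is labelled as peaks and background. All replicate columns were used (0 left out); dm3 lists were not.

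Summits were placed by the deposited offset, 1-based, on the Ensembl annotation of BDGP6, with 23307 TSS positions of 17896 genes and no pseudogenes or transposable elements. Location was assigned in the order coding, UTR, non-coding exon, intron, intergenic. Sequence came from RefSeq. Shares have 95% exact binomial intervals and differences Newcombe intervals. The intervals between summits and flanks did not use the pairing of each flank with its own summit. Each flank was split between both sides of the summit, so it held fewer match positions than the window. No test was run, since there is 1 group. Members and lists were chosen with earlier results of these data known. The result of 1 gene list is not reported here. The genes named are the strongest 10 sites of each location, sites at the edges of the rules, multi-site hosts, list members and sites with the forkhead core, the last chosen after their values were seen. Motif and overlap steps were tested on simulated data. Software was Python 3.11.15, pandas 2.3.3, numpy 2.4.6 and scipy 1.17.1.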

Additional observations from a re-analysis of the deposited data

How the results depend on the processing

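Of 80 alternative values for the main results, 63 stayed within the main value's 95% interval (or within 1.5 times for counts), and 17 did not. The ratio of densities stayed above 1 throughout, whereas the intronic minus intergenic median signal, 0.09 and given no direction, was -1.89 with a TSS distance of 500 bp and -4.35 with 2000 bp. No paired analysis was possible because there is only 1 group. With a TSS distance of 500 bp there were 678 sites, of which 41.7% had another within 10 kb; with 2000 bp there were 273. With TSSs of protein-coding genes only, the intronic share was 62.4%, since sites near non-coding TSSs entered. In the 1947 strongest peaks of the optimal set there were 162 sites: intronic minus intergenic median signal was -21.2, 99.4% had both replicates, 17.3% had another site within 10 kb, and 33.0% of hosts had a promoter peak, where the promoter peaks too were only those of that set. Within 5 kb 25.3% and within 20 kb 41.7% had another site. Counting promoter peaks within 1000 bp, 73.4% of hosts had one. Within 25 bp the forkhead core was at 5.76% of sites; within 100 bp it was at 11.97%, and at 14.6% of intronic sites.

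Leaving out replicate 2 or 3 gave 566 and 463 sites, intronic shares of 65.02% and 71.1%, density ratios of 2.04 and 2.32, signal differences of -1.59 and -1.72, shares within 10 kb of 32.5% and 33.3%, host shares of 53.5% and 64.9%, forkhead shares of 7.42% and 9.50%, and intronic forkhead shares of 8.70% and 12.5%. Both signal differences are on the scale of the single replicate used, not on the pooled scale against whose interval they were compared. Depth is unknown, so the precision of single signals is too. Leaving out overlapping peaks or repeat-masked windows, chosen after seeing the data, left the intronic share, the share with another site within 10 kb and both forkhead shares within their intervals; these were the results it was run for. Of 135 shares of other motifs under alternatives 43 left the main interval; the cause was not tested.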
